A study of Mus musculus with 8 samples.

Results

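Cholesterol and fatty acid synthesis was followed in cultured mouse keratinocytes (KCs) through 34 genes, taken by their gene names from the 41457 genes of each deposited table. They comprise 7 genes of the mevalonate steps, 11 genes of the later sterol steps, 5 regulators, 4 genes of sterol transport and storage, and 7 genes of fatty acid synthesis. The KCs, the epithelial cells of the epidermis, came from the tails of adult wildtype C57BL/6 mice. They were left untreated in serum-free medium with 0.06 mM Ca++, a low calcium level, for 1 week (4 samples) or 3 weeks (4 samples). From 3 weeks on in this medium, the study saw larger cells and cornification-like envelopes. Poly(A) RNA was sequenced, and the question was how transcript levels differed between the shorter and the longer culture. No source says which samples share an animal, so p-values measure the spread between these samples.

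Cholesterol is built from acetyl-CoA through mevalonate, isoprenoids, squalene and a series of sterols, and fatty acids are built from the same acetyl-CoA. Both routes are driven by the membrane-bound transcription factors SREBP1 and SREBP2, which the protein Scap escorts to the Golgi for cleavage when sterols are scarce and which the Insig proteins hold back in the endoplasmic reticulum when sterols are plentiful. When oxysterols accumulate, the nuclear LXR receptors raise the sterol exporters Abca1 and Abcg1. In the epidermis these lipids feed the water barrier of the cornified layer, which KCs assemble as they differentiate.

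The stretches before the transcription start are shown for 4 members whose levels are described further on, since the routes are known for control at this place. Hmgcs1 stands for the mevalonate steps, Pmvk fell most among the enzymes of cholesterol synthesis, and Sc5d and Abca1 rose. Each run is the 250 bases before the first start that RefSeq lists on GRCm38.p6, read 5′ to 3′ on the strand of the gene, with matches on either strand to TCACNCCAC (a sterol regulatory element), CCAAT (the NF-Y site), GGGCGG (the Sp1 site) or CACGTG (an E-box) in capitals. No matches overlap in these 4 windows, which lie at chr13:119690101-119690350 (plus strand), chr3:89454291-89454540 (plus strand), chr9:42264301-42264550 (minus strand) and chr4:53159896-53160145 (minus strand).
Hmgcs1: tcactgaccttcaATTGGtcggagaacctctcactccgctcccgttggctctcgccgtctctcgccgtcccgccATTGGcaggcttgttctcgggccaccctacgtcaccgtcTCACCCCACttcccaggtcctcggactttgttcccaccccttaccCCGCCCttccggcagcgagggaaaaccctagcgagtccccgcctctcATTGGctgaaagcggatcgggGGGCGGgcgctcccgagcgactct
Pmvk: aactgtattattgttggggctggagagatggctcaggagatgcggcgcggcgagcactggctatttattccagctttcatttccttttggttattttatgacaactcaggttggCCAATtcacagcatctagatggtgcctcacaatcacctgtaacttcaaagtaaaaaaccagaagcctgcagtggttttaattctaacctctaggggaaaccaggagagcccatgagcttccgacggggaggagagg
Sc5d: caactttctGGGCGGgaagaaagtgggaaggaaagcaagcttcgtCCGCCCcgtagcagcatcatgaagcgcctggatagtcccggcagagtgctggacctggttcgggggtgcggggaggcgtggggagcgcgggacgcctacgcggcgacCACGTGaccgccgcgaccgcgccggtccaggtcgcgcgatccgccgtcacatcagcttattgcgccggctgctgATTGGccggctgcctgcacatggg
Abca1: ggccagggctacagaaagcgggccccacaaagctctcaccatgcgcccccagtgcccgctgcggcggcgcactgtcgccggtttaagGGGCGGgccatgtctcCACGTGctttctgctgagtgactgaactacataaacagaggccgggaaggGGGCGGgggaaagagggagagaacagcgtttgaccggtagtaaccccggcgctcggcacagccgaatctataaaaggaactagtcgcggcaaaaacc
Hmgcs1 held 1 match to the sterol element, 137 bases before the start, together with 3 CCAAT and 2 GGGCGG matches. Pmvk held a single CCAAT match, 136 bases before the start, and the window before its second listed start (chr3:89459321-89459570) held none of the motifs. Sc5d held 1 CCAAT, 2 GGGCGG and 1 CACGTG match, and Abca1 held 2 GGGCGG and 1 CACGTG match.

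Promoters of 250 bases before to 50 bases after a start were listed for 27 of the 34 members. CCAAT occurred in 22 of these 27, against 41.1% of all 27025 genes with a listed promoter and 43.1% of the 9749 such genes that had enough reads to be tested. GGGCGG occurred in 23 of the 27, against 38.2% of all genes and 69.9% of the tested genes. CACGTG occurred in 6 of the 27, namely Hsd17b7, Sc5d, Dhcr7, Scap, Insig1 and Abca1, against 8.09% of all genes and 11.8% of the tested genes. The sterol element in this strict form occurred only in Hmgcs1 among the 27, against 1.44% of all genes and 1.46% of the tested genes. A match is a run of letters and not a measured site, and genes with several listed promoters had several chances to match.

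The reads on exons numbered between 13896807 and 20026084 per sample, and all 34 members had enough reads to be tested among 12590 genes. Levels are given as the deposited RPKM values, in which exon reads are scaled to exon length and to all mapped reads. Changes are given as log2FC, the log2 of the ratio of 3 weeks to 1 week, with its standard error (SE) from edgeR, whose TMM normalization also corrects for library composition. The median log2FC of all tested genes was 0.03 with edgeR and -0.16 on the log2(RPKM + 0.1) scale, so falls look slightly larger in RPKM. The KC markers Krt5 and Krt14 were abundant in every sample, and Krt5 itself was lower at 3 weeks, with a log2FC of -1.32 (adjusted p = 0.00103, edgeR). The 8 KC markers, mostly Krt5 and Krt14, summed to 13214 to 15702 RPKM at 1 week and 8134 to 9696 RPKM at 3 weeks, without overlap. Some were uneven among the 3-week samples, as with Dsp between 14.1 and 296 RPKM. The summed RPKM of 8 sebocyte markers stayed between 1.12 and 5.89, that of 6 adipocyte markers between 0.223 and 0.808, that of 6 immune markers between 0.546 and 1.78, and that of 4 endothelial markers between 0.252 and 0.557, with the sebocyte gene Dgat2l6 and the Langerhans cell gene Cd207 at 0 reads throughout. The 8 fibroblast markers summed to between 2.84 and 6.98 with overlapping groups, and 1 of them, Pdgfrb, was lower at 3 weeks with a log2FC of -1.74 (adjusted p = 0.0102, edgeR). Replicate 3 at 3 weeks stood apart from the other samples. Its most counted gene was the mitochondrial mt-Atp6 with 2.58% of the exon reads, and genes with at least 6726 exon bases differed there from the other 3-week samples by a median of -0.36 in log2 CPM (counts scaled to library size), while genes with at most 2710 bases differed by 0.41. Replicate 4 at 3 weeks trended the other way, by 0.27 for the long and -0.29 for the short genes. Across all tested genes, Spearman's rho between this deviation and exon length was -0.48 and 0.31 in these samples, 0.33 in replicate 1 at 3 weeks, -0.33 in replicate 1 at 1 week and between -0.11 and 0.17 in the others. Of the 34 members, 13 overlap a gene on the other strand, and 5 (Acat2, Mvd, Fdps, Lss and Tm7sf2) had between 13.9% and 57.2% unique reads. In bulk RNA, fewer cells that express a gene and less RNA per cell cannot be told apart.

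At 3 weeks, 3 members were higher (Abca1, Sc5d and Insig2) and 7 were lower (Pmvk, Mvd, Fdps, Sqle, Stard4, Scd1 and Elovl6) by the quasi-likelihood test of edgeR with a threshold of 0.05 on the adjusted p. Among all tested genes 32.8% passed this test, 15.7% as higher and 17.0% as lower, and the share of members, 29.4%, was close to that background. The median log2FC of the members was -0.29, and 22 of the 34 values were negative. The 4 samples of both times did not overlap in RPKM for 2 members that were higher and 10 that were lower, against 10.8% and 26.2% of all tested genes. On the log2(RPKM + 0.1) scale with limma, 1 member was higher and 12 were lower, beside 1313 and 3089 of all tested genes, as compared with 1981 and 2146 in edgeR. The count of lower members depended on single samples. It was 2 without replicate 3 or without replicate 4 at 1 week, 3 without replicate 1 at 3 weeks, 4 without replicate 1 at 1 week and 11 without replicate 2 at 1 week. In the same order, all tested genes gave 1865, 1644, 1640, 1823 and 1783 lower calls, of between 12741 and 12820 genes tested. Pmvk and Scd1 were lower, and Abca1 was higher, whichever sample was left out.

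**Figure D1:**
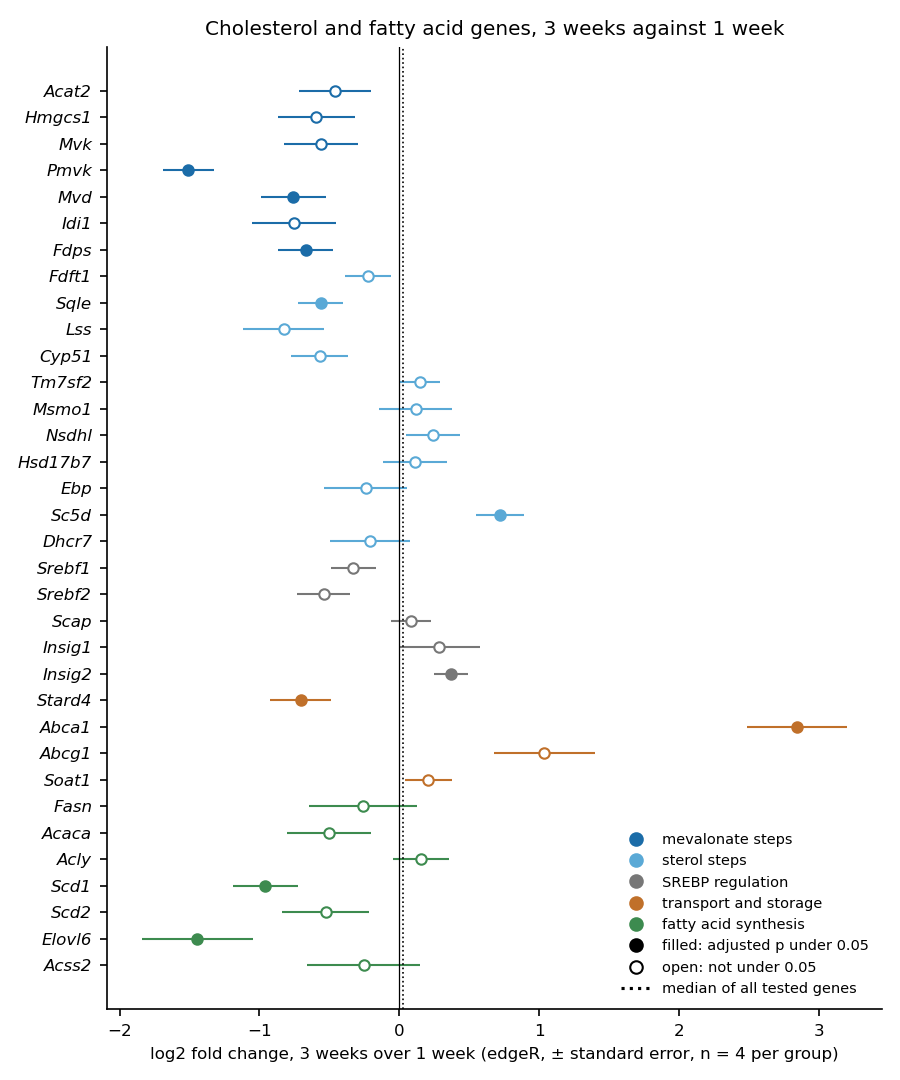
Log2FC of each member at 3 weeks over 1 week (edgeR, points with standard error, 4 samples per group), coloured by role. Filled points passed the adjusted p-value threshold of 0.05, and the dotted line is the median of all tested genes (0.03). All 7 mevalonate genes lie left of 0, with Pmvk farthest left, while Abca1 lies farthest right at 2.84.

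All 7 genes of the mevalonate steps had negative log2FC values, with a median of -0.67 beside 0.03 for all tested genes, and 3 of them passed the test. Pmvk, which encodes phosphomevalonate kinase (chr3:89454541-89469013 on GRCm38), had 27.9, 25.6, 37.4 and 39.1 RPKM in replicates 1 to 4 at 1 week and 11.3, 11.7, 9.38 and 8.39 RPKM at 3 weeks. The lowest 1-week sample was thus more than 2-fold above the highest 3-week sample. Its log2FC was -1.51 ± 0.19 (SE, adjusted p = 0.00067, edgeR), a level 2.84-fold higher at 1 week, and this call held in all 18 alternative analyses.

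Fdps, farnesyl diphosphate synthase at the branch to isoprenoids, had 136, 123, 138 and 146 RPKM at 1 week and 86.1, 90.2, 77.4 and 50.2 RPKM at 3 weeks. The groups did not overlap, and replicate 4 was lowest at 3 weeks. Its log2FC was -0.67 ± 0.20 (adjusted p = 0.0293, edgeR). Only 13.9% of its exon reads mapped to a single place, so copies elsewhere in the genome may share its reads, and with these unique reads alone the adjusted p was 0.0428. The call was lost without replicates 1, 3 or 4 at 1 week (adjusted p = 0.0501, 0.0617 and 0.0743) and without replicate 1 at 3 weeks (0.0512).

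Mvd, mevalonate diphosphate decarboxylase, had 51.0, 35.8, 70.7 and 70.3 RPKM at 1 week and 34.8, 36.0, 25.5 and 24.4 RPKM at 3 weeks. Replicate 2 at 1 week lay inside the range of the 3-week samples. The log2FC was -0.76 ± 0.23 (adjusted p = 0.0352, edgeR). Among the fits with a single sample left out, the call was kept only without that replicate, where the adjusted p was 0.00948. Omission of any other sample ended the call with an adjusted p between 0.0536 and 0.0953. Over all 18 alternatives the call was kept in 10. Unique reads made up 28.5% of the Mvd reads, and the gene overlaps Gm20388 on the other strand.

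The other 4 mevalonate genes did not pass the test. Hmgcs1, the synthase that makes HMG-CoA, had 80.6, 67.6, 142 and 157 RPKM at 1 week and 73.6, 81.4, 51.4 and 60.0 RPKM at 3 weeks. Replicates 3 and 4 at 1 week were far above replicates 1 and 2, which lay among the 3-week samples. The log2FC was -0.59 ± 0.28 (adjusted p = 0.134, edgeR), and it passed only without replicate 2 at 1 week (adjusted p = 0.0491). Idi1, the isopentenyl diphosphate isomerase, had 128, 84.5, 204 and 177 RPKM at 1 week and 82.8, 95.2, 84.7 and 50.1 RPKM at 3 weeks, and an adjusted p of 0.0866 in edgeR. It passed in 5 of 18 alternatives, among them the fit on the preparations found at both times with the preparation as a block (adjusted p = 0.0284). Mvk, mevalonate kinase, fell short at an adjusted p of 0.136, and the cytosolic thiolase Acat2 at 0.202, with log2FC values of -0.56 ± 0.26 and -0.46 ± 0.26. Their groups overlapped.

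The summed RPKM of the 7 mevalonate genes was 524, 414, 735 and 721 at 1 week and 375, 406, 313 and 241 at 3 weeks. The groups did not overlap, although replicate 2 at 1 week was only just above replicate 2 at 3 weeks. Replicate 4, the lowest 3-week sample, was the one in which short genes were low, and Acat2, Mvk, Pmvk and Mvd have at most 2710 exon bases. The part of this trend in their values was not tested, and without that sample Pmvk remained lower with a log2FC of -1.41 (adjusted p = 0.000922, edgeR).

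The 11 genes of the later sterol steps did not move one way, with 5 positive and 6 negative log2FC values and a median of -0.21. The genes that act first, Fdft1, Sqle, Lss and Cyp51 of the steps through squalene and lanosterol, all had negative values. Sqle, squalene epoxidase, had 37.1, 32.9, 47.6 and 49.5 RPKM at 1 week and 27.1, 29.5, 20.8 and 24.1 RPKM at 3 weeks. All 1-week samples were above all 3-week samples. For Sqle the log2FC was -0.56 ± 0.16 (adjusted p = 0.0263, edgeR), and the call was lost without replicates 3 or 4 at 1 week (adjusted p = 0.0703 and 0.0757) or without replicate 1 at 3 weeks (0.0543).

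Lss, the lanosterol synthase, had 20.9, 17.2, 27.0 and 30.7 RPKM at 1 week and 15.5, 16.3, 9.81 and 6.82 RPKM at 3 weeks. Cyp51, the lanosterol demethylase, had 84.9, 77.2, 115 and 110 RPKM at 1 week and 66.2, 74.2, 49.9 and 43.6 RPKM at 3 weeks. Neither pair of groups overlapped, and yet both missed the threshold, with log2FC values of -0.83 ± 0.29 (adjusted p = 0.0559, edgeR) and -0.57 ± 0.20 (adjusted p = 0.0592, edgeR). With unique reads both passed, at adjusted p-values of 0.0389 and 0.0498, and 48.1% of the Lss reads were unique. Fdft1, squalene synthase, had a log2FC of -0.22 ± 0.17 (adjusted p = 0.337, edgeR) and overlaps Ctsb on the other strand.

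Sc5d, the sterol C5-desaturase close to the end of the route, was the single enzyme of cholesterol synthesis that rose. It had 26.9, 27.1, 38.4 and 30.9 RPKM at 1 week and 51.1, 49.95, 30.5 and 51.9 RPKM at 3 weeks. The 3-week samples were high except replicate 3, which lay among the 1-week samples. With all samples the log2FC was 0.72 ± 0.17 (adjusted p = 0.012, edgeR), and 0.00421 was the adjusted p without that replicate. The call was lost in 4 of 18 alternatives. These were omission of replicate 1 at 1 week (adjusted p = 0.0544, edgeR), the replicate block (0.0552, edgeR) and limma on log2(RPKM + 0.1) and log2(RPKM + 1) (0.0574 and 0.0583).

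Dhcr7, which reduces 7-dehydrocholesterol to cholesterol, had 23.4, 17.9, 37.5 and 36.5 RPKM at 1 week and 16.7, 20.5, 18.4 and 33.95 RPKM at 3 weeks. Here replicate 4 was the highest 3-week sample, whereas it was the lowest for 8 of the 11 sterol genes. The log2FC of -0.21 ± 0.29 did not pass (adjusted p = 0.608, edgeR). The C4-demethylation genes Msmo1, Nsdhl and Hsd17b7 had log2FC values of 0.12, 0.24 and 0.11, the isomerase gene Ebp -0.24 and the reductase gene Tm7sf2 0.14, and their adjusted p-values ranged from 0.37 for Nsdhl to 0.766 for Msmo1. The intervals of these values were wide, from -0.40 to 0.63 (nominal 95%, log2) for Msmo1 and from -0.82 to 0.34 for Ebp. Msmo1, Hsd17b7 and Tm7sf2 changed sign on the RPKM scale.

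Of the 18 enzymes of cholesterol synthesis together, 4 were lower and 1 was higher (27.8%, against 32.8% of all tested genes), and the median log2FC was -0.51. Their summed RPKM was 920, 758, 1256 and 1214 at 1 week and 767, 837, 642 and 532 at 3 weeks, with replicate 2 at 1 week below replicates 1 and 2 at 3 weeks. The number of enzymes called lower was 1 without replicate 3 or replicate 4 at 1 week or without replicate 1 at 3 weeks, 2 without replicate 1 at 1 week and 8 without replicate 2 at 1 week. Pmvk was among them each time. Counts of all tested genes in the same fits are given above with those of the members.

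**Figure D2:**
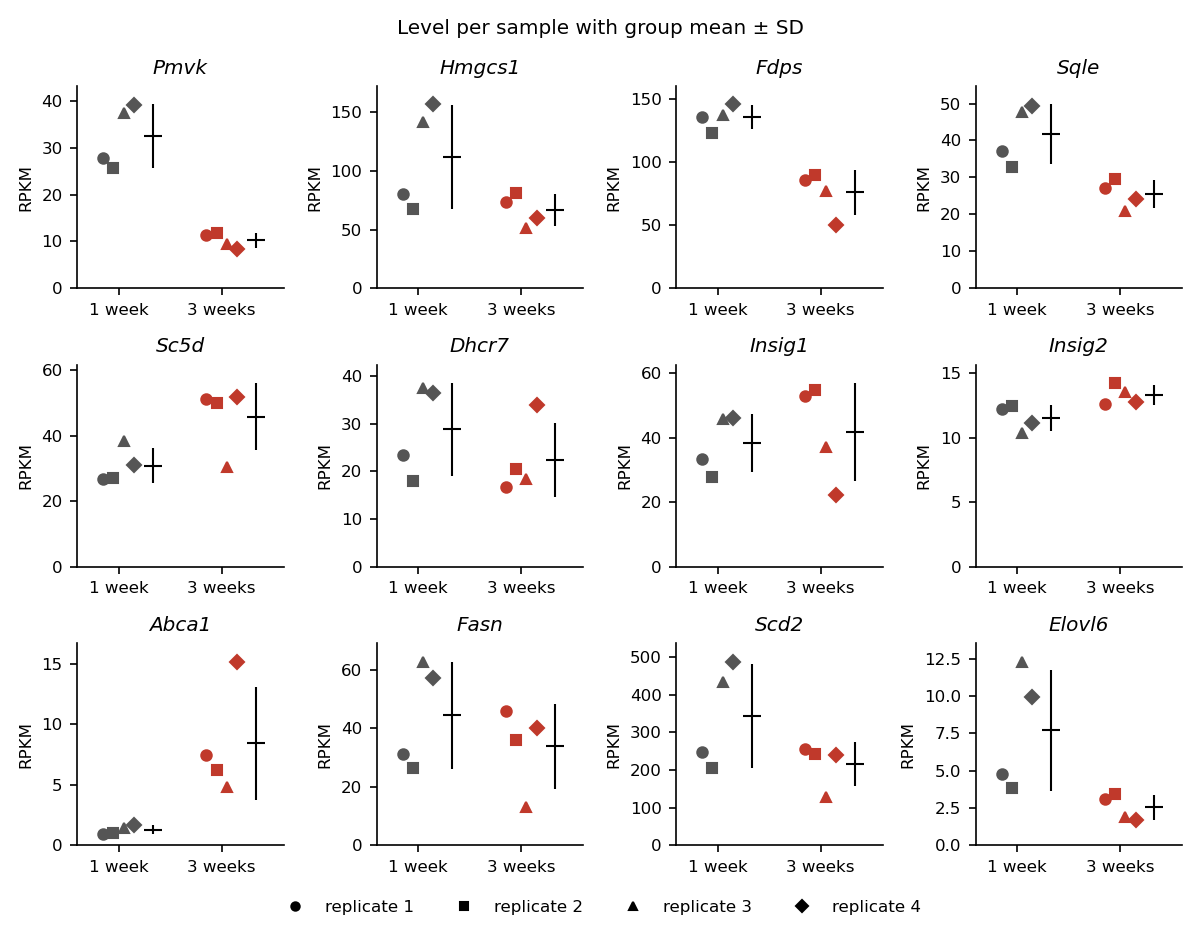
RPKM of 12 members in each of the 8 samples (1 week in grey, 3 weeks in red, marker shape for the replicate number), with the group mean and SD (n = 4) in black and axes from 0. Pmvk and Abca1 separate the groups widely, whereas for Hmgcs1, Fasn and Scd2 the 1-week replicates 1 and 2 lie within or near the 3-week range.

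Among the regulators, Srebf2, which encodes SREBP2, the factor that mainly drives the cholesterol genes, had 34.9, 38.4, 42.0 and 46.9 RPKM at 1 week and 27.4, 26.4, 15.2 and 31.6 RPKM at 3 weeks. The groups did not overlap, and the log2FC of -0.54 ± 0.19 fell just short of the threshold (adjusted p = 0.0516, edgeR). Its alternatives ran from 0.0244 to 0.132, and it passed in 7 of 18. Srebf1, which encodes SREBP1, the factor that mainly drives the fatty acid genes, had 13.1, 14.2, 15.4 and 18.5 RPKM at 1 week and 13.0, 11.3, 7.59 and 12.0 RPKM at 3 weeks, with a log2FC of -0.33 ± 0.16 (adjusted p = 0.147, edgeR). In every sample Srebf1 was below Srebf2 per exon length.

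The 2 Insig genes, which encode the retention proteins, had unlike spreads. Insig2 had 12.3, 12.5, 10.4 and 11.1 RPKM at 1 week and 12.6, 14.3, 13.6 and 12.8 RPKM at 3 weeks, a narrow range without overlap. Its log2FC of 0.37 ± 0.12 just passed (adjusted p = 0.0478, edgeR), and the call was lost in 15 of 18 alternatives, including omission of any sample but replicate 4 at 3 weeks (adjusted p between 0.0657 and 0.127). Insig1, itself a well-known SREBP target, had 33.5, 27.8, 45.7 and 46.0 RPKM at 1 week and 52.9, 54.7, 37.0 and 22.2 RPKM at 3 weeks. Of the 3-week samples 2 lay above the 1-week range, 1 within it and 1 below it, and the log2FC of 0.29 ± 0.29 did not pass (adjusted p = 0.48, edgeR). Scap varied little, with a log2FC of 0.08 ± 0.14 (nominal 95% interval -0.20 to 0.36).

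Related genes were also compared as ratios within a sample, which do not depend on the scaling between samples. The ratio of Scd1 to Scd2 was 0.252, 0.332, 0.241 and 0.227 at 1 week and 0.192, 0.193, 0.210 and 0.159 at 3 weeks, and each 3-week sample was below every 1-week sample. The mean log2 ratio differed by -0.47 ± 0.15 (SE, exact two-sided permutation test, p = 0.0286, the smallest that 4 against 4 samples allow, and 0.0857 after adjustment over the 3 ratios). The ratio of Srebf1 to Srebf2 was 0.375, 0.371, 0.367 and 0.394 at 1 week and 0.472, 0.428, 0.498 and 0.380 at 3 weeks, with replicate 4 inside the 1-week range. That mean log2 ratio differed by 0.23 ± 0.09 (exact permutation p = 0.0571, adjusted 0.0857). The ratio of Insig1 to Insig2 ranged from 2.23 to 4.41 at 1 week and from 1.74 to 4.20 at 3 weeks, with a difference in log2 of -0.14 ± 0.37 (exact permutation p = 0.743, adjusted 0.743). None of the 3 ratios passed after adjustment.

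**Figure D3:**
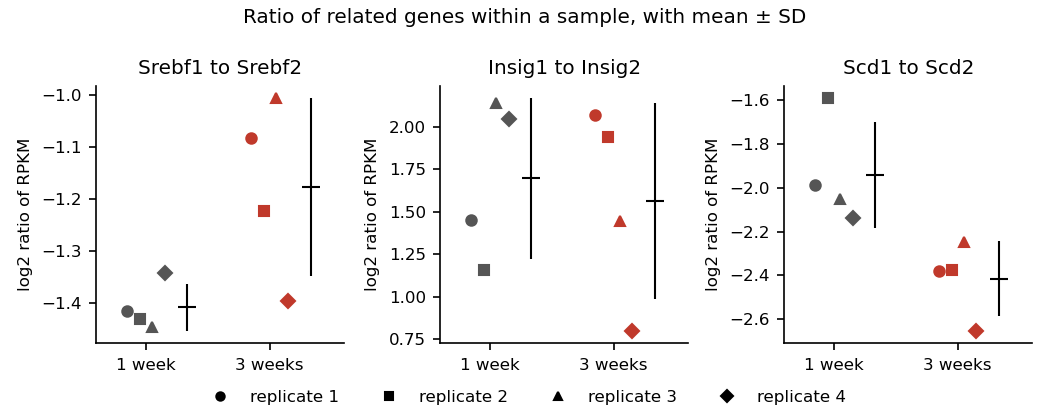
Log2 ratio of RPKM between 2 related genes in each sample (1 week in grey, 3 weeks in red, marker shape for the replicate number), with the mean and SD (n = 4) in black. The Scd1 to Scd2 ratio separates the times without overlap, the Srebf1 to Srebf2 ratio overlaps through replicate 4 at 3 weeks, and the Insig1 to Insig2 ratio overlaps broadly. The axes do not start at 0.

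The transport and storage genes held the largest rise and a fall. Abca1, the ABC transporter that exports cholesterol to apolipoproteins (chr4:53030787-53159895 on GRCm38), had 0.963, 1.04, 1.47 and 1.71 RPKM at 1 week and 7.44, 6.26, 4.80 and 15.2 RPKM at 3 weeks. The lowest 3-week sample was more than 2-fold above the highest 1-week sample, and replicate 4 was highest at both times. With 10363 exon bases Abca1 is among the long genes, which were high in replicate 4 at 3 weeks, and its log2FC without that sample was 2.43 (adjusted p = 0.00035, edgeR). All samples together gave a log2FC of 2.84 ± 0.36 (adjusted p = 0.000689, edgeR), a 7.18-fold rise resting on 190 reads in the sample with the fewest and 2315 in the sample with the most, and it passed in all 18 alternatives. Abcg1, the partner exporter, had 2.04, 1.41, 4.15 and 4.68 RPKM at 1 week and 4.79, 6.12, 4.55 and 7.15 RPKM at 3 weeks. Replicates 3 and 4 at 1 week came up to the 3-week samples, and the log2FC of 1.04 ± 0.36 narrowly missed the threshold (adjusted p = 0.0528, edgeR), passing in 5 of 18 alternatives, among them the fit on shared preparations (adjusted p = 0.031).

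Stard4, a carrier of cholesterol between membranes, had 15.9, 12.0, 21.2 and 22.0 RPKM at 1 week and 11.1, 11.7, 8.35 and 7.87 RPKM at 3 weeks. The groups came close at replicate 2 of both times without overlap. For Stard4 the log2FC was -0.70 ± 0.22 (adjusted p = 0.035, edgeR), and it was lost when any sample other than replicate 2 at 1 week was left out (adjusted p between 0.051 and 0.096). Soat1, which esterifies cholesterol for storage, had a log2FC of 0.21 ± 0.17 (adjusted p = 0.378, edgeR).

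Of the 7 fatty acid genes, Elovl6 and Scd1 were lower (28.6%, against 32.8% called over all tested genes). The other 5 did not pass the test, and the median log2FC of the list was -0.50. Elovl6, which elongates palmitate to stearate, had 4.77, 3.82, 12.3 and 9.93 RPKM at 1 week and 3.11, 3.42, 1.91 and 1.69 RPKM at 3 weeks. The groups did not overlap, but replicates 3 and 4 at 1 week were at least 2-fold above replicates 1 and 2. Elovl6 had a log2FC of -1.44 ± 0.40 (adjusted p = 0.0218, edgeR), and it was lost without replicate 3 (adjusted p = 0.0575) or replicate 4 (0.0601) at 1 week. Scd1, a stearoyl-CoA desaturase that places the first double bond, had 62.6, 68.1, 105 and 111 RPKM at 1 week and 49.0, 46.5, 26.8 and 38.1 RPKM at 3 weeks. Its log2FC was -0.96 ± 0.23 (adjusted p = 0.0131, edgeR).

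Scd2, the sister desaturase, was the most abundant member, with 248, 205, 434 and 488 RPKM at 1 week and 255, 241, 127 and 240 RPKM at 3 weeks. Replicates 1 and 2 at 1 week were at the level of most 3-week samples, and the log2FC of -0.53 ± 0.31 did not pass (adjusted p = 0.225, edgeR). Fasn, fatty acid synthase, had 31.4, 26.3, 62.9 and 57.4 RPKM at 1 week and 46.1, 36.1, 13.0 and 40.3 RPKM at 3 weeks, and a log2FC of -0.26 ± 0.38 (adjusted p = 0.644, edgeR). For Acaca, the acetyl-CoA carboxylase before it, the value was -0.50 ± 0.30 (adjusted p = 0.23, edgeR), for the citrate lyase gene Acly 0.15 ± 0.20 (0.594) and for the acetyl-CoA synthetase gene Acss2 -0.25 ± 0.40 (0.664). Replicate 3 was the lowest 3-week sample for 5 of the 7 fatty acid genes, beside 41.0% of all tested genes. Fasn and Acaca are genes with long exons in all, 10947 and 17074 bases, for which levels were low in that sample, and the part of this trend in their values was not tested. Without that sample 6 members were lower, with Srebf2 added and Mvd and Stard4 lost, and 2 were higher, with Insig2 lost. All tested genes gave 2667 lower and 2194 higher calls in that fit, against 2146 and 1981 with all samples.

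The spread among the 1-week samples had a common shape. In 30 of the 34 members replicates 3 and 4 were both above replicates 1 and 2 in RPKM, which was so in 31.5% of all tested genes. This held for all 7 mevalonate genes, 10 of the 11 sterol genes, all 7 fatty acid genes, 3 of the 5 regulators and 3 of the 4 transport and storage genes. Insig2 had the opposite order. Replicate 2 was the lowest 1-week sample for 17 of the 18 enzymes of cholesterol synthesis, beside 20.9% of all tested genes. At 3 weeks replicate 4 was the lowest for 14 of the 18, beside 34.2% of all tested genes.

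At 1 week the melanocyte markers and the sum of the sebocyte markers moved with this order. The summed RPKM of Tyrp1, Pmel, Mlana, Dct and Tyr was 4.76, 3.18, 15.4 and 20.9 at 1 week and 1.26, 5.50, 3.09 and 3.10 at 3 weeks, and 1 of the 4 markers that could be tested, Pmel, passed as lower. Tyrp1 was the most abundant of them, with at most 9.54 RPKM, and Tyr stayed at or under 0.199 RPKM. The 8 sebocyte markers summed to 2.23, 1.12, 3.25 and 5.89 RPKM at 1 week and 1.42, 2.08, 2.32 and 3.33 RPKM at 3 weeks, carried by Cidea with 0.812, 0.250, 2.45 and 4.48 RPKM at 1 week, and Dgat2l6 was at 0. Not every sebocyte marker followed the order. Awat2 ran the other way, with 0.445, 0.365, 0.229 and 0.187 RPKM at 1 week, and Mogat1 had 0.674, 0.374, 0.268 and 0.437 RPKM. The part of both lists in the levels of the lipid genes was not tested.

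**Figure D4:**
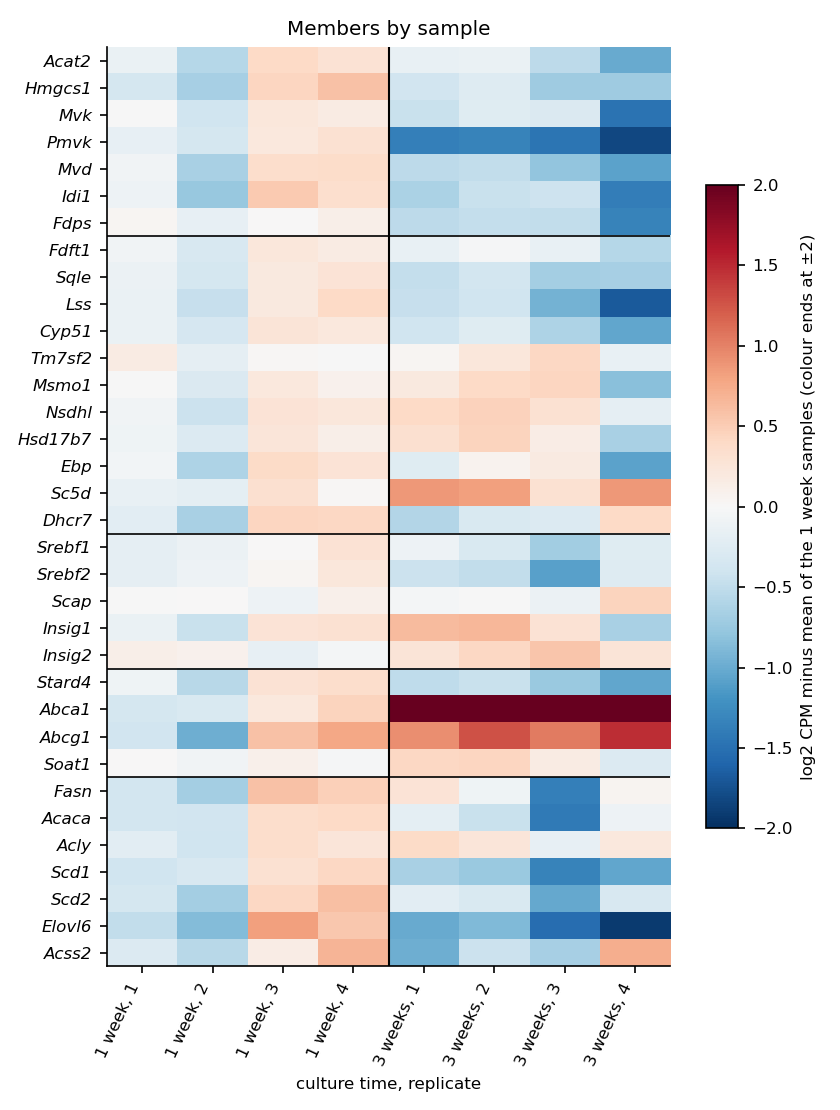
Log2 CPM of each member in each sample, minus its mean over the 4 samples of 1 week (red higher, blue lower, colour ends at 2 in either direction). Rows are grouped by role from the mevalonate steps at the top to fatty acid synthesis at the bottom. Replicates 3 and 4 at 1 week are redder than replicates 1 and 2 in most rows, Pmvk is blue and Abca1 dark red in all 3-week samples, and replicate 3 at 3 weeks is blue for most fatty acid genes.

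**Figure D5:**
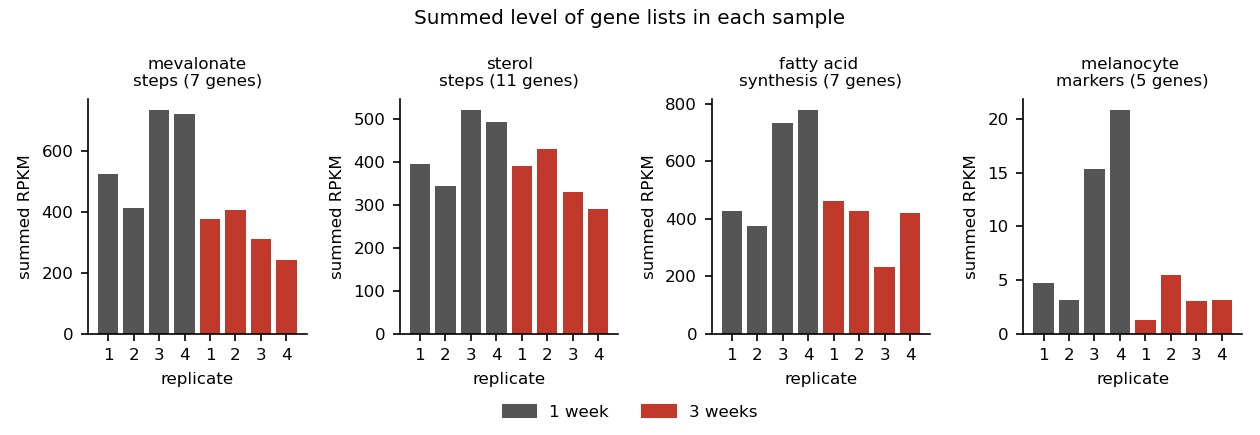
Summed RPKM of the mevalonate, sterol and fatty acid genes and of the melanocyte markers in each sample (bars from 0, 1 week in grey, 3 weeks in red, replicates 1 to 4 in order). The mevalonate sums of 414 to 735 at 1 week lie above those of 241 to 406 at 3 weeks, and replicates 3 and 4 are the highest 1-week samples in all 4 panels.

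The names of the deposited files carry a number that was read as that of the cell preparation, which the labels do not state. The study describes the same batches of cells at both times. By that number, 3 preparations occur at both times, as replicates 1, 3 and 4 at 1 week and, in the same order, replicates 1, 2 and 4 at 3 weeks. Within each of these 3 preparations all 7 mevalonate genes were lower at 3 weeks, with median log2 changes (RPKM + 0.1) of -0.55, -0.80 and -1.54, beside -0.10, -0.13 and -0.09 for all tested genes. The direction was the same in each of these pairs, and the size was smallest for the pair whose 1-week sample was among the lower ones. Replicate 2 at 1 week, the lowest 1-week sample for all 7 of these genes, and replicate 3 at 3 weeks were in none of the pairs. Of the 18 enzymes of cholesterol synthesis 13 were lower in every preparation, beside 37.1% of all tested genes. The fatty acid genes differed between preparations, with 3, 7 and 7 of the 7 genes lower and medians of 0.04, -0.85 and -0.59. Fasn was higher at 3 weeks in the first preparation, by 0.55, and lower in the others, at -0.80 and -0.51. Abca1 was higher in all of them, by 2.83, 2.02 and 3.08.

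Lists of 51 related lipid genes, none of them a member, were counted beside these results, and 49 had enough reads. Of these, 9 were higher and 16 lower (51.0% in all), against 15.7% and 17.0% of all tested genes, and the median log2FC was -0.02. The lists were chosen with earlier results of these data known, so these shares cannot show an excess over the background. Among 8 genes of SREBP processing and turnover, 1 was higher and 3 were lower, with the sterol-regulated membrane protein gene Tmem97 at -1.13 ± 0.28 (adjusted p = 0.0137, edgeR), Erlin1 at -0.81 and the site-2 protease gene Mbtps2, which cuts SREBPs in the Golgi, at -0.53. Among 8 isoprenoid genes, 1 was higher and 3 were lower, with Pdss1, which makes the side chain of ubiquinone, at -1.55, Coq2, the next enzyme of that route, at -0.57 and the geranylgeranyl diphosphate synthase gene Ggps1 at 0.55. The Pdss1 value rested on only 15 to 139 reads per sample.

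Of 9 tested genes of LXR signalling and sterol uptake, 4 were higher and none was lower, beside the same 15.7% and 17.0% of all tested genes. The other 5 did not pass, and 3 of the 9 log2FC values were negative. The activity of the LXR receptors was not tested. Mylip, which marks lipoprotein receptors for degradation, had 0.634, 0.736, 0.927 and 0.649 RPKM at 1 week and 1.89, 1.96, 2.07 and 1.73 RPKM at 3 weeks, so the groups lay far apart. Its log2FC was 1.55 ± 0.21 (adjusted p = 0.000872, edgeR), resting on only 37 to 114 reads per sample. The lysosomal sterol carrier gene Npc2 followed at 0.66 and the lysosomal acid lipase gene Lipa at 0.64. The receptor genes themselves differed in level, since Nr1h3 (LXRα) was at or under 0.235 RPKM and was not tested, whereas Nr1h2 (LXRβ) had between 14.2 and 18.2 RPKM and a log2FC of 0.41 ± 0.11 (adjusted p = 0.0178, edgeR).

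Fatty acid modification had 1 higher and 8 lower genes among 16 tested, with a median of -0.32, beside 15.7% and 17.0% called over all tested genes. Elovl4, an elongase of very long chains for barrier ceramides, had 8.57, 8.39, 15.9 and 24.0 RPKM at 1 week and 1.68, 2.59, 3.78 and 2.56 RPKM at 3 weeks, and a log2FC of -2.24 ± 0.41 (adjusted p = 0.00366, edgeR). Mid1ip1, which aids the polymerization of acetyl-CoA carboxylase, fell by 1.79 on the log2 scale (adjusted p = 0.000164, edgeR) and the acyl-CoA synthetase gene Acsl1 by 1.74 (0.00366). Mid1ip1 stayed between 165 and 194 RPKM at 1 week and between 43.1 and 54.6 RPKM at 3 weeks. Of 8 glycerolipid genes 2 were higher and 2 lower, with the lipid droplet coat gene Plin2 at 1.47 ± 0.27 (adjusted p = 0.00346, edgeR), the triglyceride lipase gene Pnpla2 at 0.76 and the acyltransferase gene Gpam at -0.63.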

How the data were processed

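The RNA-seq tables of 8 KC samples (culture of 1 week or of 3 weeks, 4 each) were analysed. The authors prepared poly(A) libraries, aligned trimmed reads to GRCm38 in the CLC Genomics Workbench and deposited whole-number counts per gene (total exon, unique exon and total gene reads), which are not normalized. The authors also deposited RPKM values with decimal commas, which equal exon reads scaled to exon length and mapped reads. Use of the strand and the annotation release are not given in the sources used here.

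The main test used edgeR 4.0.16 under R 4.3.3 on total exon reads (filterByExpr, TMM, glmQLFit and glmQLFTest, Benjamini-Hochberg adjustment over 12590 genes, threshold 0.05). All 8 samples entered without pairing, since the study used unpaired tests, although it describes the same batches of cells at both times. Standard errors were derived from the F statistics, and nominal 95% intervals from these with the normal quantile. Such intervals are somewhat narrower than the F test with few samples would give. For ratios within a sample, an exact permutation test (two-sided, 70 arrangements, SciPy 1.17.1) compared the times. Figures used matplotlib 3.10.9. The procedure was tested on simulated counts. The smallest chi-square per degree of freedom between replicates of a time was 14.6, so no 2 samples looked like repeats of 1 library. This does not show that they come from separate animals. Counts per sample, from 13896807 to 20026084 exon reads, set the precision of single levels, which cover counting error only.

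The members and all lists of related genes and markers were chosen with earlier results of these data known. All 34 members are named. For each related list the counts are given with at most 3 of the called genes with the largest changes. Other genes named (Krt5, Krt14, Dsp, Nr1h2, Nr1h3, Dgat2l6, Awat2, Mogat1, Cd207, Pdgfrb, Cidea and the melanocyte markers) were chosen after their values were seen. Alternatives were a replicate block, only the 3 preparations found at both times with a preparation block, no filter, upper-quartile normalization, DESeq2 1.42.0 (independent filtering off), at least 10 reads in every sample, unique exon reads, total gene reads, limma 3.58.1 on log2(RPKM + 0.1) and log2(RPKM + 1), and omission of each sample. Promoter sequences are from RefSeq on GRCm38.p6. Gene coordinates are those of the deposited tables. Marker lists comprised keratinocyte, sebocyte, adipocyte, fibroblast, melanocyte, immune and endothelial genes. Of the 8 keratinocyte markers 2 were lower at 3 weeks and none higher.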

Additional observations from a re-analysis of the deposited data

Results flagged for a closer look

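In 3 of 68 groups of 4 samples (34 members at both times), 1 sample lay far from the others by Dixon's ratio, and chance alone gives about 1 in 20 groups. Sc5d in replicate 3 at 3 weeks was at 30.5 RPKM, with the other 3-week samples between 49.95 and 51.9 RPKM. Scd2 in the same sample was at 127 RPKM, with the others between 240 and 255 RPKM. Soat1 in replicate 3 at 1 week was at 2.73 RPKM, with the others between 2.44 and 2.47 RPKM.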

How the results depend on the processing

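Across 18 alternatives, 517 of 612 member comparisons kept their direction and their side of the threshold, 48 lost the call, 32 gained one and 15 changed sign, none of them for a called member. Pmvk and Abca1 kept their calls in all 18. The deviations of same-numbered samples correlated at -0.207, -0.153, -0.127 and 0.242, and the numbers were not taken as pairs. For the 3 shared preparations the correlations were -0.207, 0.208 and 0.242. The largest, 0.386, was between unlike preparations (46 at 1 week and 57 at 3 weeks), so these values cannot decide which samples are pairs. With the replicate block the members called lower numbered 1 (Pmvk), the cholesterol enzymes called lower 1, the related genes called lower 8 in place of 16, and the members called higher 2 (Abca1 and Abcg1). By the preparation numbers, replicates 2 and 3 in this block joined unlike preparations (47 with 49, and 49 with 57). For the ratios the block left the differences at 0.23, -0.14 and -0.47. Members called lower numbered 11 with DESeq2 and 12 with limma on either RPKM scale, and cholesterol enzymes called lower 7 and 8, respectively. Limma called 1 member higher on either scale. With only the 3 shared preparations and the preparation as a block, members called lower numbered 8, members called higher 3 and cholesterol enzymes called lower 5. Related genes in that fit numbered 5 higher and 10 lower. With single samples left out, members called lower ranged from 2 to 11, members called higher from 1 to 3, cholesterol enzymes called lower from 1 to 8 and related genes called lower from 9 to 15. All tested genes gave 1281 higher and 3090 lower calls with limma on log2(RPKM + 1), against 1981 and 2146. They gave 2424 and 2458 with DESeq2, 1365 and 1602 with the replicate block, and 1307 and 1805 with the shared preparations. With single samples left out, calls over all tested genes ranged from 1371 to 2284 higher and from 1631 to 2667 lower.

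The sign changes were all in members without a call. Log2 fold changes with limma on log2(RPKM + 0.1) and log2(RPKM + 1) were -0.029 and -0.026 for Tm7sf2, -0.12 and -0.11 for Msmo1, -0.095 and -0.091 for Hsd17b7, and -0.096 and -0.091 for Scap, where the median of all genes was itself at -0.16 and -0.10. Within the 3 preparations they were -0.051 for Tm7sf2, -0.20 for Msmo1 and -0.076 for Hsd17b7, and the cause was not tested. With single samples left out they ranged from -0.027 to 0.34 for Msmo1, from -0.0097 to 0.30 for Hsd17b7, from -0.057 to 0.13 for Scap and from -0.75 to 0.017 for Acss2. With 4 samples a group, changes under 2-fold can be missed, and genes with few unique reads (Fdps, Mvd) are less certain than depth alone would make them.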

Other observations

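Over the 8 samples, the 5 genes whose log2 CPM was most like that of Fasn (of 8755 genes averaging 10 CPM or more) were Mbnl1 (Pearson's r = 0.989), Ror1, Syk, Stat5b and Ubap2 (0.961), none of them a member. For Abca1 they were Vps53 (0.999), Fcho2, Pld3, Wdtc1 and Vamp2 (0.991). The points share libraries and culture time, and with 8 samples and so many genes high values occur readily, so these are descriptions. Within the groups, after the mean of each time was removed, Sqle followed Hmgcs1 most closely among the members (r = 0.986), and Acaca followed Fasn (0.975).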
